A study of Homo sapiens with 10 samples.

Results

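The genes described here encode the death receptors of the TNF receptor superfamily, the decoy receptors for the ligand TRAIL, and the proteins that carry or restrain their signal. The 10 genes are *TNFRSF10A*, *TNFRSF10B*, *TNFRSF10C*, *TNFRSF10D*, *FAS*, *TNFRSF1A*, *TNFSF10*, *FADD*, *CASP8* and *CFLAR*. They were chosen by name as a family, with earlier results of both comparisons below already known, so their values, and the counts of those that passed the threshold of the fit across all genes, are given as a description and are not tests of the family. A row was found for 9 of the 10 among the 13029 genes of the *ZMAT3* experiment, where *TNFSF10* had none, and for all 10 among the 17642 genes of the siRNA experiment.

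RNA-seq was performed in 10 libraries of HCT116, a human colorectal cancer cell line. The paper names no drug treatment for these libraries. To ask which RNAs depend on *ZMAT3*, a p53 target gene that encodes an RNA-binding protein, 3 *ZMAT3*-WT and 3 *ZMAT3*-KO libraries were compared. The KO was made with CRISPR/Cas9 and 2 sgRNAs flanking the p53 response element of *ZMAT3*. The paper states that the region between the sgRNAs was only partly deleted, and *ZMAT3* RNA remained in *ZMAT3*-KO at 0.135 times the *ZMAT3*-WT level. Each genotype was a single-cell clone, so the replicates measure the spread between cultures of 1 clone. A difference between genotypes cannot be told apart from a difference between clones. The labels of these 6 libraries also carry the abbreviations EV and unt, which are not explained there. To ask which RNAs depend on p53, 2 libraries of cells given a control siRNA (siCTRL) were compared with 2 libraries of cells given a pool of 4 siRNAs against p53 (sip53), all taken 72 hours after transfection.

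Death receptors are membrane proteins with an intracellular death domain. When TRAIL or FAS ligand binds, the receptor recruits the adaptor FADD, which brings in caspase-8, and the activated caspase starts apoptosis, while c-FLIP, the product of *CFLAR*, occupies the same platform and holds caspase-8 in check. TRAIL, encoded by *TNFSF10*, binds the death receptors DR4 (*TNFRSF10A*) and DR5 (*TNFRSF10B*) as well as the decoys DcR1 (*TNFRSF10C*), which has no cytoplasmic domain, and DcR2 (*TNFRSF10D*), whose death domain is truncated. TNFR1 (*TNFRSF1A*), the receptor for TNF, reaches FADD and caspase-8 through the adaptor TRADD. *TNFRSF10B* and *FAS* are textbook p53 target genes.

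Both perturbations were visible in the libraries. The log2 CPM (counts relative to library size) of *ZMAT3* was 5.00, 5.20 and 5.26 in *ZMAT3*-WT and 2.25, 2.34 and 2.20 in *ZMAT3*-KO. *CDKN1A*, a cyclin-dependent kinase inhibitor gene induced by p53, was at 525.01 and 481.06 FPKM (fragments per kilobase of transcript, scaled to the library) in siCTRL and at 34.22 and 37.67 FPKM in sip53. Each check gene was also lower in the other experiment: *CDKN1A* had a log2 fold change of -0.53 in *ZMAT3*-KO (limma adjusted p = 2.02e-08). *ZMAT3* was at 12 and 13.62 FPKM in siCTRL and at 3.16 and 1.97 FPKM in sip53. Its log2 fold change there was -2.31, passing unadjusted but not adjusted (limma adjusted p = 0.067). The 6 *ZMAT3* libraries share 1 distribution of values, from -6.62 to 13.51 log2 CPM, and neither table holds counts, so the depth of every library is unknown. Pearson's r between replicates, across genes, was 0.995 to 0.996 in the *ZMAT3* experiment, 0.964 in siCTRL and 0.958 in sip53. Of 7 epithelial marker genes, 6 had a row in the *ZMAT3* table (*VIL1* had none), and their summed level was 5757 to 6083 CPM in *ZMAT3*-WT and 3160 to 3242 CPM in *ZMAT3*-KO. The lower sum came from the keratin genes *KRT8*, *KRT18* and *KRT19* (log2 fold changes of -0.94, -0.82 and -1.75), while *EPCAM* was at 0.01, *CDH1* at 0.05 and *CDX2* at -0.09, none of which passed. All 7 had a row in the siRNA data, and there the sum was 3737 to 3972 FPKM in siCTRL and 3532 to 4170 FPKM in sip53, where *EPCAM* alone of these genes passed unadjusted, at a log2 fold change of 0.60. Of 8 markers of leukocytes, fibroblasts and endothelium only *COL1A1* had a row in the *ZMAT3* table, at 9.16 to 9.79 CPM in *ZMAT3*-WT and 10.4 to 10.9 CPM in *ZMAT3*-KO. Among these 8 markers 4 had a row in the siRNA data and summed to 4.36 to 5.72 FPKM in siCTRL and 6.38 to 7.29 FPKM in sip53. The part of these marker differences in the results below was not tested.

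Levels of different genes can be compared only where values are scaled to gene length, as FPKM are; that the siRNA values are FPKM was inferred from the table, and the order below rests on it. In the siCTRL libraries *TNFRSF10B* had the highest mean level of the 10 genes, 101 ± 15.5 FPKM (SD, n = 2), followed by *TNFRSF1A* at 81.4 FPKM, whose values overlapped those of *TNFRSF10B*. Next came *TNFRSF10D* at 34.2 FPKM, *CASP8* at 26.8 FPKM, *TNFRSF10A* at 20.6 FPKM and *FADD* at 19.6 FPKM, the last 2 of which overlapped. *FAS* followed at 14.8 FPKM, *CFLAR* at 10.2 FPKM and the decoy *TNFRSF10C* at 6.92 FPKM, with no overlap between neighbours in this order. The ligand gene *TNFSF10* was last at 0.41 FPKM.

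The 4 TRAIL receptor genes lie side by side on chromosome 8 of hg38, within 205 kb (GENCODE release 44). From the lower coordinate upwards they are *TNFRSF10B* (23020133 to 23069031, minus strand), *TNFRSF10C* (23102921 to 23117445, plus strand), *TNFRSF10D* (23135588 to 23164027, minus strand) and *TNFRSF10A* (23190452 to 23225102, minus strand). They are related in sequence, and how reads that match more than 1 of them were divided could affect their values.

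The decoy receptor gene *TNFRSF10C* was lower in both experiments. Its log2 CPM was 1.74, 1.60 and 1.91 in *ZMAT3*-WT and 0.49, 0.28 and -0.01 in *ZMAT3*-KO. The groups did not overlap, and the log2 fold change was -1.49 (SE 0.15), a level 0.356 times that of *ZMAT3*-WT. After siRNA transfection its level was 6.56 and 7.29 FPKM in siCTRL and 1.6 and 1.54 FPKM in sip53. Both sip53 libraries were far below both controls, with a log2 fold change of -2.07 (SE 0.211) on the log2(FPKM + 0.1) scale, which is 0.238 times the control level. Ordered by log2 fold change from the lowest, *TNFRSF10C* stood at place 100 of 13029 genes in the *ZMAT3* experiment and at place 87 of 14274 genes tested in the siRNA experiment. It is the lowest of the 9 genes in both. With a pseudocount of 1 its log2 fold changes were -0.99 and -1.62, and it is weakly expressed. In bulk RNA, fewer cells with a transcript and less of it per cell cannot be told apart.

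The other decoy gene, *TNFRSF10D*, was lower in *ZMAT3*-KO but not separated in sip53. The log2 CPM values were 5.86, 5.93 and 5.95 in *ZMAT3*-WT and 5.28, 5.32 and 5.32 in *ZMAT3*-KO, with no overlap. This is a log2 fold change of -0.61 (SE 0.0357), or 0.656 times the *ZMAT3*-WT level. In siCTRL it was at 33.82 and 34.49 FPKM, and the sip53 values of 38.84 and 32.64 FPKM lay on either side of these. The log2 fold change there was 0.06 with a 95% interval of -0.40 to 0.52. The experiments were normalized separately, and the difference between them was not tested.

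Among the TRAIL death receptors, *TNFRSF10B* (DR5) was lower in both experiments. DR5 transcripts were at 6.71, 6.80 and 6.74 log2 CPM in *ZMAT3*-WT and 6.37, 6.41 and 6.34 in *ZMAT3*-KO, without overlap, and the log2 fold change was -0.37 (SE 0.0328). With the siRNAs it was at 90.2 and 112.08 FPKM in siCTRL and at 64.94 and 41.26 FPKM in sip53. Both sip53 values were below both controls, but they differed from each other by more than the controls did in proportion. The log2 fold change was -0.96 (SE 0.279), and it ranged from -1.28 to -0.63 when each library was left out in turn.

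*TNFRSF10A* (DR4) showed no separation in either experiment. The *ZMAT3* libraries had a log2 CPM of 5.18, 5.22 and 5.24 in *ZMAT3*-WT and 5.14, 5.20 and 5.14 in *ZMAT3*-KO. The groups overlapped, and the log2 fold change was -0.05 with a 95% interval of -0.13 to 0.03. The siRNA libraries had 22.73 and 18.51 FPKM in siCTRL and 21.17 and 22.79 FPKM in sip53. There the log2 fold change was 0.10 and the interval, -0.39 to 0.58, was wider.

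**Figure D1:**
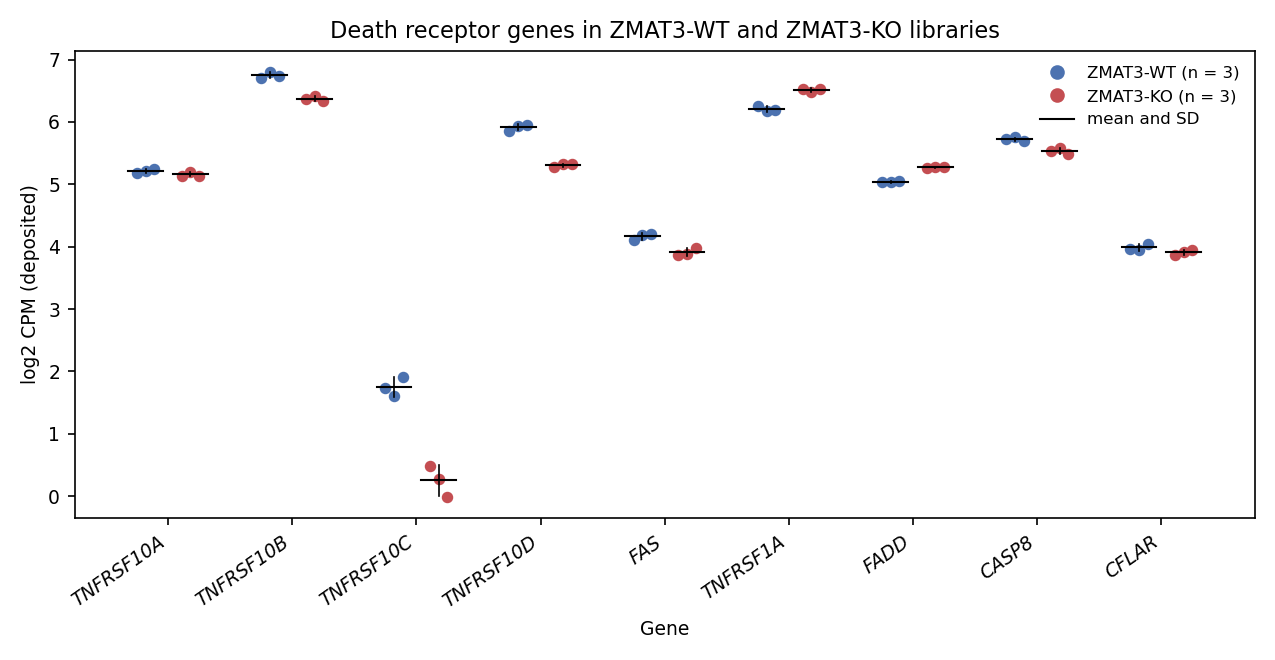
Deposited log2 CPM (vertical axis) of the 9 genes with a row in the *ZMAT3* table, in 3 *ZMAT3*-WT (blue) and 3 *ZMAT3*-KO (red) libraries, with the mean and SD in black. The red points of *TNFRSF10C*, from -0.01 to 0.49, lie below the blue points, from 1.60 to 1.91, while those of *TNFRSF10A* overlap.

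Summed over the 4 TRAIL receptor genes, the level was 153 and 172 FPKM in siCTRL and 127 and 98.2 FPKM in sip53. The death receptors *TNFRSF10A* and *TNFRSF10B* together made up 113 and 131 FPKM in siCTRL and 86.1 and 64 FPKM in sip53. The decoys together made up 40.4 and 41.8 FPKM in siCTRL and 40.4 and 34.2 FPKM in sip53. As a share of the 4, the decoys were 26.3% and 24.2% in siCTRL and 32% and 34.8% in sip53, so the share was higher in both sip53 libraries. Within it *TNFRSF10C* went from 4.28% and 4.23% to 1.26% and 1.57%, and *TNFRSF10D* from 22.1% and 20% to 30.7% and 33.2%. *TNFRSF10B* was 58.8% and 65% in siCTRL and 51.3% and 42% in sip53. These shares are a description of the transcripts and not of the receptors on the cell surface.

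**Figure D2:**
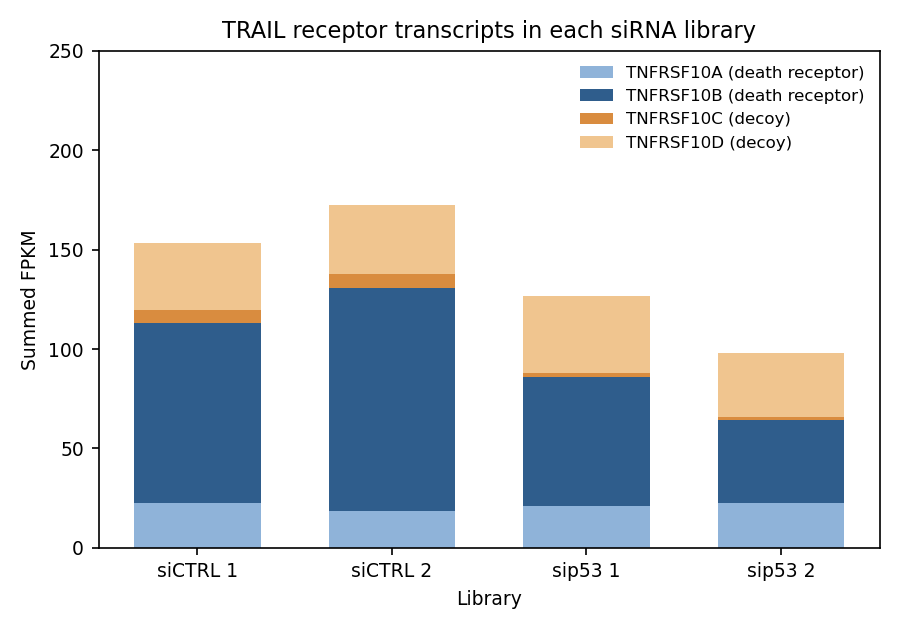
Summed FPKM of the 4 TRAIL receptor genes (vertical axis, from 0) in each siRNA library, stacked by gene. The sum is 153 and 172 FPKM in siCTRL and 127 and 98.2 FPKM in sip53, and the dark blue block of *TNFRSF10B* is smaller in both sip53 libraries.

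*FAS*, the receptor for FAS ligand, is a chromosome 10 gene (88953813 to 89029605, plus strand). It was at 4.10, 4.18 and 4.21 log2 CPM in *ZMAT3*-WT and 3.86, 3.88 and 3.98 in *ZMAT3*-KO, without overlap, a log2 fold change of -0.26 (SE 0.0516). The siRNA libraries held 14.01 and 15.64 FPKM in siCTRL against 6.86 and 4.52 FPKM in sip53. Both sip53 libraries were below the controls, the log2 fold change was -1.39 (SE 0.254), or 0.381 times the control level, and leaving out each library gave -1.69 to -1.10.

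*TNFRSF1A* (TNFR1), on chromosome 12 (6328757 to 6342114, minus strand), was higher in *ZMAT3*-KO. Its level was 6.26, 6.18 and 6.19 log2 CPM in *ZMAT3*-WT and 6.53, 6.48 and 6.52 in *ZMAT3*-KO, with a log2 fold change of 0.30 (SE 0.0328). The siRNA libraries held 113.33 and 49.51 FPKM in siCTRL and 59.33 and 146.53 FPKM in sip53, so that siCTRL 1 and sip53 2 were high and the other pair low. The log2 fold change was 0.32 with a 95% interval of -1.11 to 1.74, and it was -0.28 without siCTRL 2 and -0.34 without sip53 2. The same pairs of libraries deviated together across the 14274 genes tested (r = 0.616 between the deviations of siCTRL 1 and sip53 2 from their group means). With 2 libraries in each group, the deviations within a group mirror each other. Either these pairs or the same-numbered ones therefore have a positive r. With these pairs as a block, a fit added after seeing the data, *TNFRSF1A* passed an unadjusted p of 0.05 and was higher in sip53. That block was chosen for how the libraries deviated across all genes tested, a pattern that *TNFRSF1A* shares. No conclusion is drawn from its passing.

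**Figure D3:**
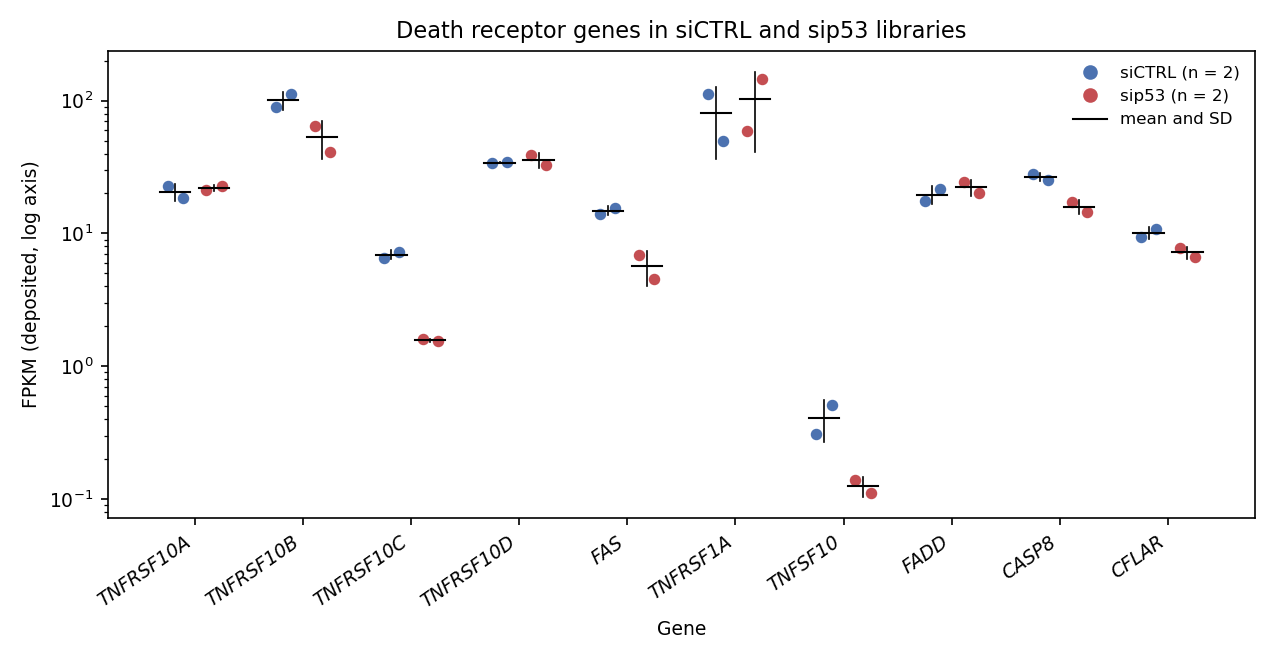
Deposited FPKM (vertical log axis) of the 10 genes in 2 siCTRL (blue) and 2 sip53 (red) libraries, with the mean and SD in black. *TNFRSF10C* is at 6.56 and 7.29 FPKM in siCTRL and 1.6 and 1.54 FPKM in sip53, and *TNFRSF1A* shows the widest spread within groups.

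*TNFSF10*, which encodes TRAIL, is a chromosome 3 gene (172505508 to 172523475, minus strand). It was at 0.31 and 0.51 FPKM in siCTRL and at 0.14 and 0.11 FPKM in sip53. The sip53 values were below the controls, but the gene was under the minimum mean of 0.5 FPKM set for the fit and has no fold change here.

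The adaptor gene *FADD* (chromosome 11, 70203296 to 70207390, plus strand) was higher in *ZMAT3*-KO. *FADD* was at 5.03, 5.03 and 5.06 log2 CPM in *ZMAT3*-WT and 5.26, 5.27 and 5.28 in *ZMAT3*-KO, without overlap, a log2 fold change of 0.23 (SE 0.0349). For the siRNAs the values were 17.55 and 21.72 FPKM in siCTRL and 24.42 and 20.11 FPKM in sip53. These groups overlapped, with a log2 fold change of 0.18 and a 95% interval of -0.35 to 0.71.

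*CASP8*, the initiator caspase of this route, was lower in both experiments. It is a chromosome 2 gene (201233443 to 201361836, plus strand). In *ZMAT3*-WT it was at 5.72, 5.75 and 5.70 log2 CPM and in *ZMAT3*-KO at 5.53, 5.58 and 5.48, without overlap, a log2 fold change of -0.19 (SE 0.0359). In siCTRL it was at 28.2 and 25.41 FPKM and in sip53 at 17.23 and 14.6 FPKM, also without overlap. The log2 fold change was -0.75 (SE 0.188).

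*CFLAR*, the gene of the caspase-8 inhibitor c-FLIP, is a neighbour of *CASP8* (201116154 to 201176687, plus strand). Its values were 3.97, 3.94 and 4.05 log2 CPM in *ZMAT3*-WT and 3.86, 3.91 and 3.95 in *ZMAT3*-KO. These groups overlapped, with a log2 fold change of -0.08 and a 95% interval of -0.19 to 0.03. It was at 9.45 and 10.87 FPKM in siCTRL and 7.74 and 6.67 FPKM in sip53. Here the groups did not overlap, and the log2 fold change was -0.49 with an interval of -0.98 to -0.00, at the edge of the threshold. *CFLAR* did not pass with a pseudocount of 1, with centred libraries, without the variance trend or without any 1 of the 4 libraries.

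Counted over the family, 7 of 9 genes passed an adjusted p of 0.05 in the *ZMAT3* experiment (limma), where 58.8% of all 13029 genes did. Of these, 5 were lower, against 30.1% of all genes, and 2 were higher, against 28.7%. With a fold change of at least 1.5 as well, *TNFRSF10C* and *TNFRSF10D* were left, both lower, against 8.96% of all genes (4.37% lower and 4.6% higher). The median log2 fold change was -0.19 over the 9 genes and -0.005 over all genes. The groups did not overlap for 7 of the 9, 5 lower and 2 higher, as for 64.2% of all genes (32.9% lower and 31.3% higher). Since the family was chosen with these comparisons known, nothing further is read from the counts.

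With sip53, 5 of 9 genes tested passed at an unadjusted p of 0.05, all of them lower in sip53, against 15.1% of the 14274 genes tested (9.28% lower and 5.86% higher). They were *TNFRSF10B*, *TNFRSF10C*, *FAS*, *CASP8* and *CFLAR*. At an adjusted p of 0.05 only *TNFRSF10C* was left, against 0.273% of the genes tested (0.238% lower and 0.035% higher). The median log2 fold change was -0.49 over the 9 genes and -0.040 over all genes tested. For these 5 of the 9 the groups did not overlap, all lower, against 46.4% of the genes tested (26.3% lower and 20.1% higher). Leaving out 1 library left a single one in its group, so only log2 fold changes are given for those fits. They ranged from -2.15 to -2.0 for *TNFRSF10C*, -1.69 to -1.1 for *FAS* and -1.28 to -0.63 for *TNFRSF10B*. For *CASP8* the range was -0.87 to -0.63 and for *CFLAR* -0.6 to -0.38.

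**Figure D4:**
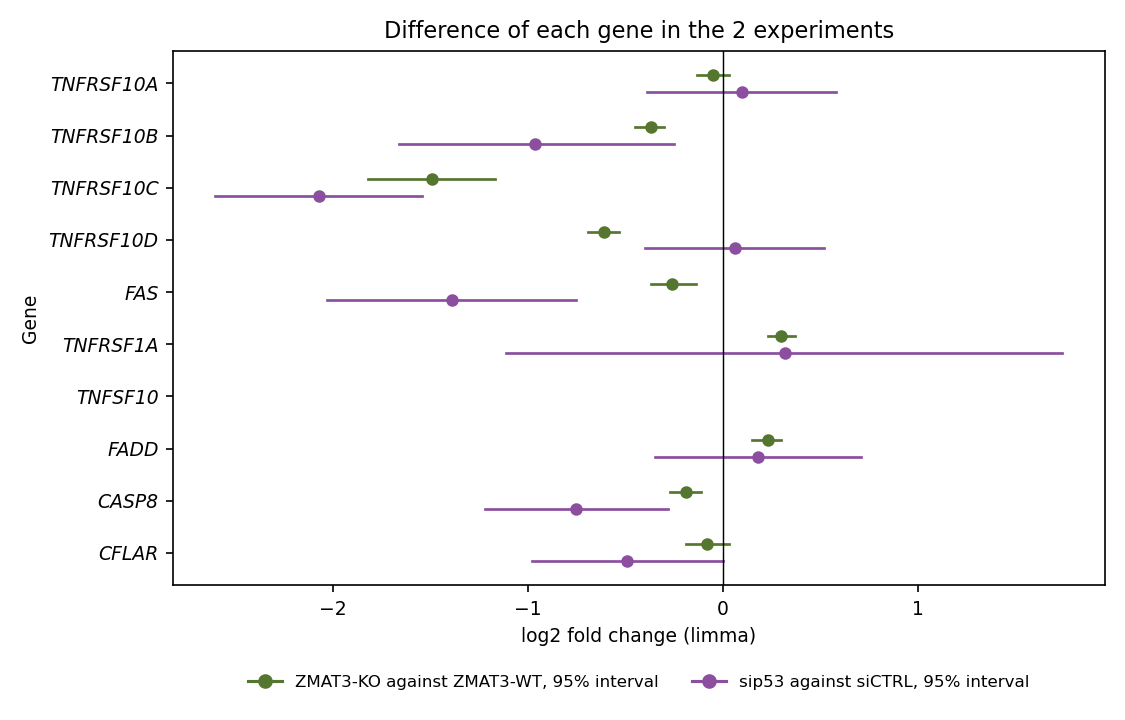
Log2 fold change (horizontal axis) of each gene in *ZMAT3*-KO against *ZMAT3*-WT (green) and in sip53 against siCTRL (purple), with 95% intervals from limma. *TNFRSF10C* is lowest in both, at -1.49 and -2.07, *TNFRSF10D* is at -0.61 and 0.06, and *TNFSF10* has no fold change in either.

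Promoter windows of 300 bases around annotated transcription starts (RefSeq, GRCh38.p14) were available for 6 of the 10 genes, 13 windows in all. The remaining genes had no window and were not searched, so nothing is known here about matches in them. They were searched for the p53 half-site decamer, a pattern that reads the same on both strands. A match was found in 2 of the 13 windows, against 6.63% of all 35116 windows. The match and 30 bases on each side are shown for both windows, with the match in capitals:
*FAS*, chr10:88991181-88991480, plus strand: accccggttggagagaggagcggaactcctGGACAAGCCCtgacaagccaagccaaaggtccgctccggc
*CASP8*, chr2:201257785-201258084, plus strand: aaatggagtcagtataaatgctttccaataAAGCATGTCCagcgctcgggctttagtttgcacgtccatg
The coordinates are those of the windows. In *FAS* the match starts at 88991309, in intron 1 of the canonical GENCODE transcript and 511 bases after its start. In *CASP8* it starts at 201257914, inside the gene but 2622 bases before the start of the canonical transcript. A match is a description of these letters, and binding was not measured here.

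To see how the rest of the receptor pathway behaved, 41 further genes of death receptor signalling were examined. In the *ZMAT3* experiment 33 had a row, and 21 passed an adjusted p of 0.05 (limma), 12 higher and 9 lower, which is 63.6% against 58.8% of all genes. Only *NGFR* and *BIRC3* also passed the fold change of 1.5, and both were lower. For sip53, 33 were tested and 5 passed at an unadjusted p of 0.05, 2 higher and 3 lower, which is 15.2% against 15.1% of all genes tested. The 3 lower ones, *CASP2*, *CASP6* and *RNF31*, no longer passed without siCTRL 1 or with a replicate block, *CASP2* and *CASP6* also without sip53 2, *CASP2* without siCTRL 2 and *RNF31* without sip53 1. None of the 33 passed an adjusted p of 0.05 in limma. The median log2 fold change was 0.02 in the *ZMAT3* experiment and -0.15 in the siRNA experiment.

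Among the other receptors, 4 of 7 had a row in the *ZMAT3* table and all 4 passed, 2 in each direction, where 58.8% of all genes did. *NGFR*, the low-affinity neurotrophin receptor gene, was at 3.57, 3.49 and 3.55 log2 CPM in *ZMAT3*-WT and fell to 2.81, 2.83 and 2.72 in *ZMAT3*-KO (log2 fold change -0.75, limma adjusted p = 4.51e-07). After p53 siRNA it moved the other way, from 5.52 and 5.76 FPKM in siCTRL to 9.36 and 10.83 FPKM in sip53 (log2 fold change 0.83, passing unadjusted, limma adjusted p = 0.168). *TNFRSF6B*, the soluble decoy receptor for FAS ligand, was higher in both. It was at 2.57, 2.56 and 2.49 log2 CPM in *ZMAT3*-WT and 3.10, 2.92 and 3.20 in *ZMAT3*-KO (log2 fold change 0.53, limma adjusted p = 0.000101). In siCTRL it was at 44.36 and 33.66 FPKM and in sip53 at 103.22 and 157.4 FPKM (log2 fold change 1.72, passing unadjusted, limma adjusted p = 0.107). *TNFRSF21* (DR6) fell by 0.36 in *ZMAT3*-KO on the log2 scale (limma adjusted p = 4.19e-07). *TNFRSF25* (DR3) had a log2 fold change of 0.47 (limma adjusted p = 0.0215), but its groups overlapped.

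The other ligands, *FASLG*, *TNF*, *LTA* and *TNFSF15*, had no row in the *ZMAT3* table. Only *LTA* and *TNFSF15* had one in the siRNA data, at or below 0.08 FPKM in every library, and none was tested.

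Among the caspases, 5 of 6 passed in the *ZMAT3* experiment, 3 higher and 2 lower, where 58.8% of all genes did. In the siRNA experiment 2 of 6 passed, both lower, where 15.1% of all genes tested did. The executioner caspase gene *CASP6* rose by 0.37 on the log2 scale in *ZMAT3*-KO (limma adjusted p = 1.27e-05). With siRNA *CASP6* was at 37.58 and 31.35 FPKM in siCTRL and 22.58 and 20.4 FPKM in sip53 (log2 fold change -0.67, passing unadjusted, limma adjusted p = 0.211). *CASP2* likewise had opposite signs, 0.14 in *ZMAT3*-KO (limma adjusted p = 0.0078) and -0.54 in sip53 (passing unadjusted, limma adjusted p = 0.266). *CASP10*, a further initiator caspase that lies between *CFLAR* and *CASP8* on chromosome 2 (201182872 to 201229428), fell from 0.81, 1.11 and 1.02 log2 CPM to 0.49, 0.43 and 0.47 in *ZMAT3*-KO (log2 fold change -0.52, limma adjusted p = 0.00591). *CASP10* was at 1.36 and 1.61 FPKM in siCTRL and 1.86 and 1.37 FPKM in sip53, which overlap.

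The counts of the next groups stand beside 58.8% of all genes in the *ZMAT3* experiment and 15.1% of those tested for sip53. Of the 13 adaptors and kinases, 12 were tested in each experiment. In the *ZMAT3* experiment 6 of them passed, 3 in each direction, and for sip53 none passed unadjusted in limma. *FAIM*, an inhibitor of FAS-induced apoptosis, fell by 0.29 on the log2 scale in *ZMAT3*-KO (limma adjusted p = 0.000434). *DEDD*, which encodes a death effector domain protein, rose by 0.26 (limma adjusted p = 0.000119). Of the inhibitor of apoptosis and ubiquitin genes, 4 of 6 passed in the *ZMAT3* experiment, 2 in each direction, and 1 of 6 in the siRNA experiment. *BIRC3* (cIAP2) was at 1.59, 1.63 and 1.52 log2 CPM in *ZMAT3*-WT and fell to 0.91, 0.63 and 1.02 in *ZMAT3*-KO (log2 fold change -0.72, limma adjusted p = 0.00032). The deubiquitinase gene *CYLD* rose by 0.27 on the log2 scale in *ZMAT3*-KO (limma adjusted p = 0.00236). *RNF31* (HOIP), a subunit of the linear ubiquitin ligase, was at 50.11 and 42.75 FPKM in siCTRL and 22.9 and 32.75 FPKM in sip53 (log2 fold change -0.75, passing unadjusted, limma adjusted p = 0.247). Of the 5 genes of the mitochondrial branch, 2 passed in the *ZMAT3* experiment, both higher, and none passed unadjusted for sip53 in limma.

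To see whether the differences of the TRAIL receptor genes extended along chromosome 8, the genes annotated within 1 Mb of the cluster were examined. In the *ZMAT3* experiment 24 had a row and 12 passed an adjusted p of 0.05 (limma), 4 higher and 8 lower, which is 50% against 58.8% of all genes. Their median log2 fold change was -0.03. The 3 with the largest absolute log2 fold change were *EGR3*, a transcription factor gene, at -0.69 (limma adjusted p = 0.000564), *HR* at 0.63 (limma adjusted p = 2.02e-08) and *PDLIM2* at -0.40 (limma adjusted p = 3.02e-05). Next to the cluster, *RHOBTB2* had a log2 fold change of 0.17 on the *TNFRSF10B* side and *CHMP7* one of -0.02 on the *TNFRSF10A* side, both picked for their position after the values were seen.

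For sip53, 28 of these genes were tested and 3 passed at an unadjusted p of 0.05 (10.7% against 15.1% of all genes tested), and none passed an adjusted p of 0.05 in limma. *LGI3* and *LOXL2* were higher and *BMP1* was lower in sip53. The median log2 fold change was -0.11. The 3 with the largest absolute log2 fold change were *LGI3* at 1.47 (passing unadjusted, limma adjusted p = 0.163), *RP11-1149O23.4* at -1.35 (limma adjusted p = 0.776) and *EGR3* at -0.87 (limma adjusted p = 0.417), neither of which passed unadjusted. *RP11-1149O23.4* was at 0.55 and 3.37 FPKM in siCTRL and 3.35 and 0 FPKM in sip53, which overlap.

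**Figure D5:**
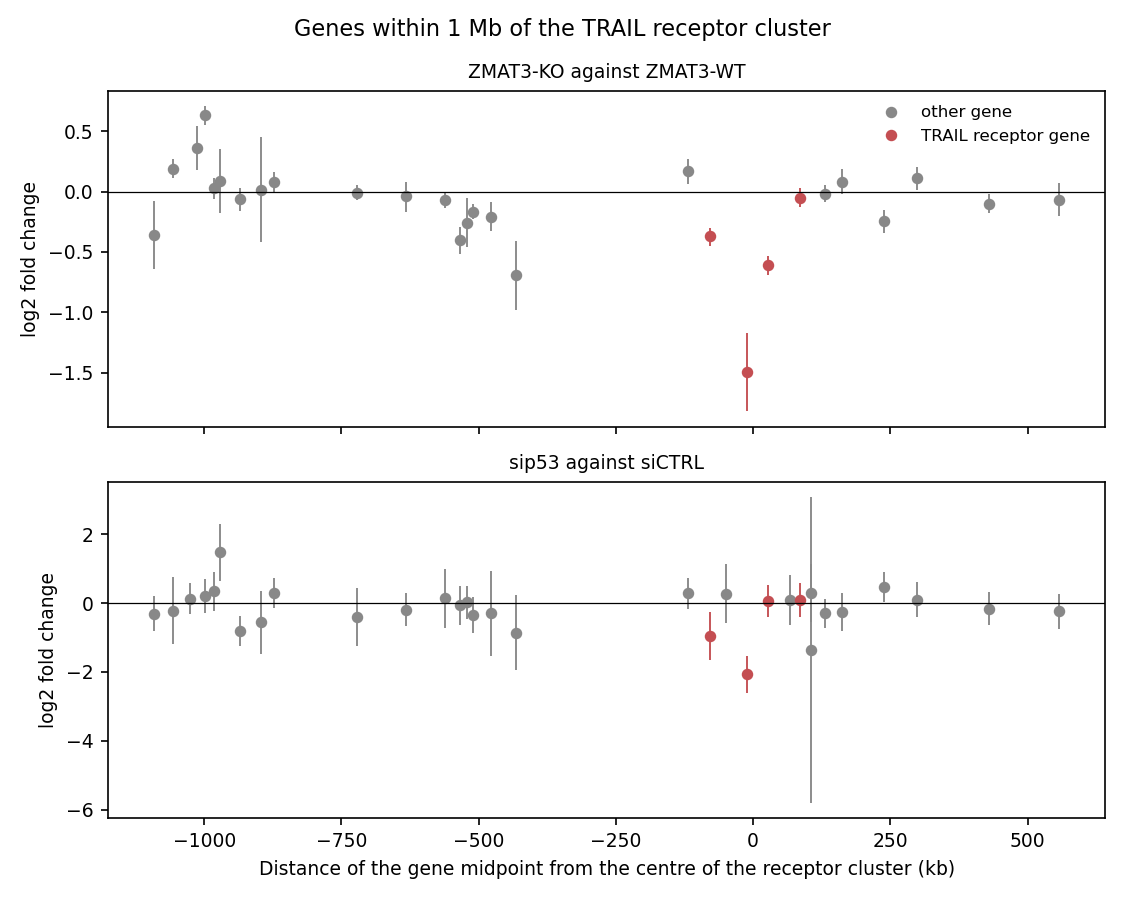
Log2 fold change (vertical axes, with 95% intervals) against the distance of each gene's midpoint from the centre of the TRAIL receptor cluster in kb, for *ZMAT3*-KO against *ZMAT3*-WT (top) and sip53 against siCTRL (bottom). In the top panel *TNFRSF10C* (red) lies at -1.49 and the lowest of the other genes (grey), *EGR3*, at -0.69.

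The genes whose pair of log2 fold changes lay nearest to that of *TNFRSF10C*, by Euclidean distance over 11371 genes tested in both experiments, were *SLC16A6* (-1.44 in *ZMAT3*-KO and -1.65 in sip53), *ETV7* (-1.39 and -2.59) and *LOXL4* (-1.33 and -1.53). Their distances were 0.423, 0.531 and 0.568. The 3 nearest to *TNFRSF10B* were *PRSS22* (-0.37 and -0.99), *TMEM199* (-0.38 and -0.92) and *SERF1A* (-0.33 and -0.91), at distances of 0.035, 0.036 and 0.062. *SERF1A* has a near-identical copy in the genome, and its values are uncertain. For *FAS* they were *HFE* (-0.31 and -1.38), *LY6G5C* (-0.30 and -1.31) and *CYFIP2* (-0.29 and -1.49), at distances of 0.060, 0.090 and 0.099. The measure uses 2 values per gene, so it describes a position in these comparisons and no more.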

How the data were processed

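Gene expression was measured by RNA-seq. The *ZMAT3* libraries were stranded and poly(A)-selected, and the authors ran Cutadapt, STAR (hg38) and RSEM on the reads. The values deposited are log2 CPM, and the step from RSEM output to them is not given in the sources used here. The values deposited for the siRNA libraries were read here as FPKM, which was inferred from the values and is not stated in the sources used here; the submitters' processing notes name CASAVA 1.8.2, FastQC 0.11.2 and TopHat2 2.0.8 and the builds hg19 and hg38, without saying which applies to which table. The fold changes and p-values that the authors deposited in both tables were not used. Gene coordinates (hg38) are from GENCODE release 44. Listed genes of the siRNA table were matched by Ensembl identifier.

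Separate fits were made for the tables with limma 3.58.1 and R 4.3.3 (variance trend, two-sided, Benjamini-Hochberg adjustment over all genes tested): the deposited log2 CPM of 13029 genes, and log2(FPKM + 0.1) of 14274 genes whose mean reached 0.5 FPKM. Genes passed at an adjusted p of 0.05 in the first (also counted with a 1.5-fold change) and at p under 0.05, unadjusted, in the second (also counted at an adjusted p of 0.05). The fits were also run on simulated data with independent errors in each library, as a check of the code only. Deviations of the siRNA libraries were linked, so that run says nothing about the siRNA calls. The members, gene lists and rules were chosen with earlier results of these data known. The named pathway genes are the 10 with the largest absolute log2 fold change among those that passed in each comparison and those that passed in both; the named neighbours and nearest genes are the first 3. The level of the siRNA's own target is not reported here. Same-numbered libraries of the *ZMAT3* experiment did not deviate together (r = -0.039, -0.022 and -0.093), so the numbers were not used as pairs. Tables and figures were made with Python 3.11.15, pandas 2.3.3, numpy 2.4.6 and matplotlib 3.10.9.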

Additional observations from a re-analysis of the deposited data

How the results depend on the processing

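The counts of genes that passed in the family, the pathway list and the neighbours were recomputed with a pseudocount of 1, with a stricter filter (for the siRNA table also with none), with median-centred libraries, without the variance trend, with a replicate block, at stricter thresholds and without each library. No gene of the family that passed changed its direction under the pseudocount, the centring or without any 1 library. Centring had little to act on in the *ZMAT3* experiment, where the libraries already share 1 distribution of values. *TNFRSF10C* was at -0.99 in the *ZMAT3* and -1.62 in the siRNA experiment with a pseudocount of 1. Among genes that had not passed, *TNFRSF10A* was at -0.05 without siCTRL 2, *TNFRSF10D* at -0.07 without sip53 1, and *TNFRSF1A* at -0.28 without siCTRL 2 and -0.34 without sip53 2. In the *ZMAT3* experiment 7 genes of the family passed in every fit that left out 1 library (7 to 7) and 2 with the 1.5-fold change; the 41 pathway genes gave 17 to 21 and 2, and the chromosome 8 neighbours 10 to 12 and 2. In the siRNA experiment the family gave 3 at a minimum of 5 FPKM, where *TNFRSF10C* is no longer tested, and 1 at an adjusted p of 0.05. Without a filter it gave 5, with *TNFSF10* in place of *CFLAR*. At an adjusted p of 0.05 the pathway genes gave 0 there, and so did the neighbours. Leaving out 1 siRNA library left a single one in its group, so no counts are given for those fits. With a replicate block the counts were 7, 24 and 13 in the *ZMAT3* experiment and 4, 2 and 2 in the siRNA experiment, for family, pathway and neighbours. Deviations of same-numbered siRNA libraries had r = -0.616, so a crossed pairing was added after seeing the data, and that block gave 6 (*TNFRSF1A* added, higher), 13 and 9. With 2 libraries in each group, the crossed pairs then have r = 0.616 by construction. No conclusion is drawn from the counts with this block. For all these refits the share of all genes that passed is not given here, so their counts are a description only. The causes were not tested. The depth of the libraries is unknown, which limits weak genes such as *TNFRSF10C* and *TNFSF10* most.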
